A study of Mus musculus with 16 samples.

Results

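In bulk RNA sequencing of 16 livers, each from its own mouse and in its own library, 38 genes of the cell cycle and of DNA replication were examined out of 17003 in the table. They were chosen by symbol, as genes of known roles in G1, S phase and mitosis, and all 38 were found once. The mice were males of 8 weeks, labelled as fed, and split into 8 Fgl1 WT and 8 Fgl1 LKO animals. Fgl1 encodes fibrinogen-like 1, a protein secreted by hepatocytes. Fgl1 LKO mice carried floxed *Fgl1* alleles, derived from a EUCOMM allele with Flpo recombinase, together with Cre under the albumin promoter, so that the deletion is confined by design to cells that use this promoter. Fgl1 WT mice were fl/fl littermates described as wild type. Both groups thus carry the floxed allele, and loss of *Fgl1* and presence of Cre cannot be told apart in this comparison. Values are FPKM, fragments scaled to transcript length and to library size.

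*Fgl1* itself ranged from 157.8 to 1330.7 FPKM in the 8 Fgl1 WT mice (median 312) and from 13.2 to 89.99 FPKM in the 8 Fgl1 LKO mice (median 50.3). The genotypes did not overlap, and every library went with its label (two-sided exact permutation test, p = 0.000155, the lowest value possible with 8 mice in each group). The log2 fold change was -3.11 ± 0.49 (SE), with an adjusted p of 0.0725 from limma over all genes. Hepatocyte markers were very high in all livers: *Alb* had a median of 41263 FPKM and the 8 markers together 51051 to 91413 FPKM. Among markers of other cells, medians over the 16 mice were 366 FPKM for *Hba-a1* of erythroid cells, 60.9 for *Dcn* of stellate cells and 38.0 for *Cd5l* of Kupffer cells, and *Ly6g* of neutrophils was listed at 0 in 14 mice. The samples are whole liver, so fewer cells of a type and less RNA per cell cannot be told apart in any value below.

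The cell cycle genes fall into groups that act one after another. Cyclin D1 drives the passage through G1 and p21, the product of *Cdkn1a*, inhibits cyclin-dependent kinases. The MCM helicase and its partners open the DNA in S phase while other enzymes supply deoxynucleotides, and the mitotic genes are transcribed late in the cycle under the DREAM and MuvB complexes, B-MYB and FOXM1. Adult hepatocytes are mostly quiescent and often polyploid, and they re-enter the cycle after injury or loss of tissue.

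Levels differed between roles. *Pcna* (17.2 FPKM on average over the 16 mice), *Tk1* (16.6) and *Cdkn1a* (15.6) were the most abundant members, followed by *Mcm7*, *Ccnd1* and *Stmn1*. Of the 24 mitotic members, only *Stmn1* and *Ube2c* reached a mean of 1 FPKM, and *Bub1* and *Cenpf* were below the filter of a mean of 0.1 FPKM, which left 36 members to test. Without Fgl1 WT replicate 8, at 7.11 FPKM, the mean of *Ube2c* was below 1 FPKM. A step size was estimated from 42 genes of low level with a single annotated transcript. They were chosen because their values lay near whole multiples of the lowest, so the steps themselves are no finding. The step was about 0.0776 FPKM for 1 kb of transcript (quartiles 0.0688 and 0.0889). If such a step is 1 fragment, the median level in the Fgl1 WT mice other than replicate 8 corresponded to about 13 fragments for *Mki67*, 9 for *Top2a* and 8 for *Cdk1*. By this estimate the low values of the mitotic members rested on few fragments. In the annotation, 13 of the 38 members overlap a protein-coding gene of the table on the opposite strand, among them *Tk1* with *Afmid* (71.6 FPKM on average) and *Mcm7* with *Cops6* (80.7). The library kit marks strand, but whether the counting used it is not given in the sources used here, so the values of these members are uncertain to that extent.

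One liver stood apart from the other 15. In Fgl1 WT replicate 8 all 24 mitotic members were at their highest of the 16 mice, and all 22 of them that passed the filter were at least double the next highest mouse, against 53 of 12770 genes (0.415%) over the whole table. This mouse was the highest of the 16 for 441 genes (3.45%). With the filter set on the mean of the other 15 mice, chosen after seeing the data, the same 22 members passed, against 45 genes at least double the next mouse (0.352%). The 24 mitotic members summed to 62.8 FPKM in it, against 6.29 to 20.1 FPKM in the other mice. By the step given above, *Mki67* had about 249 fragments in this liver and at most 69 in any other. Its *Fgl1* level, 480 FPKM, was the third highest of the Fgl1 WT mice. Its scaling factor by median ratios was the lowest of all libraries at 0.91, and its FPKM sum was the highest at 786188 (673153 to 776552 in the others), so that these 2 scalings would move its values in opposite directions. Results for the mitotic members are given with and without this mouse, a choice made after its values were seen.

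**Figure D1:**
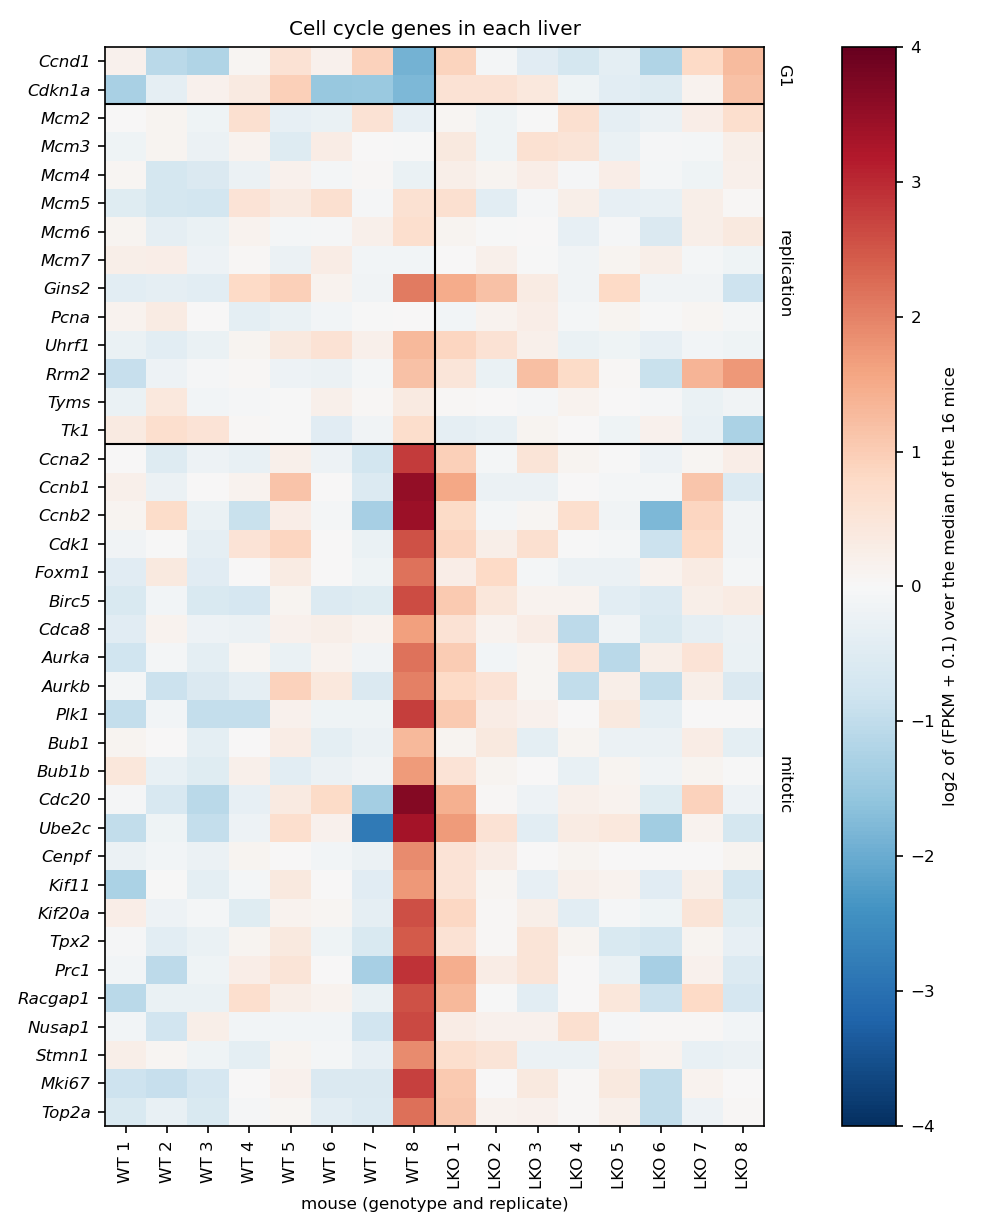
FPKM of the 38 genes in each of the 16 livers, as the log2 of (FPKM + 0.1) over the median of the 16 mice; genes are ordered by role, and the vertical line separates the genotypes. The column of Fgl1 WT replicate 8 is red through the mitotic genes, with a sum of 62.8 FPKM, and blue for *Ccnd1* and *Cdkn1a*.

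Between genotypes no member passed the threshold of 0.05 on the adjusted p in limma on log2(FPKM + 1), and neither did any of the 12770 genes tested (0 of 36 members, 0% of all genes). At an unadjusted p under 0.05, 2 members were higher in Fgl1 LKO, *Cdkn1a* and *Mcm4*, against 593 of all genes (4.64%), and 1 was lower, *Tk1*, against 302 of all genes (2.36%). The median log2 fold change of the 36 members was -0.05, with 8 of them above 0, and that of all genes was 0.01. On this scale a fold change of a gene below 1 FPKM is understated. Without Fgl1 WT replicate 8 the median of the members was 0.06 and 32 of 36 were above 0, while that of all genes was 0.00. At an unadjusted p under 0.05, *Birc5*, *Ccna2*, *Mki67*, *Plk1* and *Rrm2* were then higher, 5 members against 370 genes (2.90%), and no member was lower, against 311 genes (2.44%). None of them passed after adjustment (0% of all genes, lowest adjusted p 0.893 for members). With a term for the runs of library numbers (described below) as well, none of these 5 had an unadjusted p under 0.05. The sign of the members' median thus changed with 1 mouse, and with all mice it also changed with the pseudocount (0.02 with 0.01 FPKM added, 19 of 36 above 0).

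**Figure D2:**
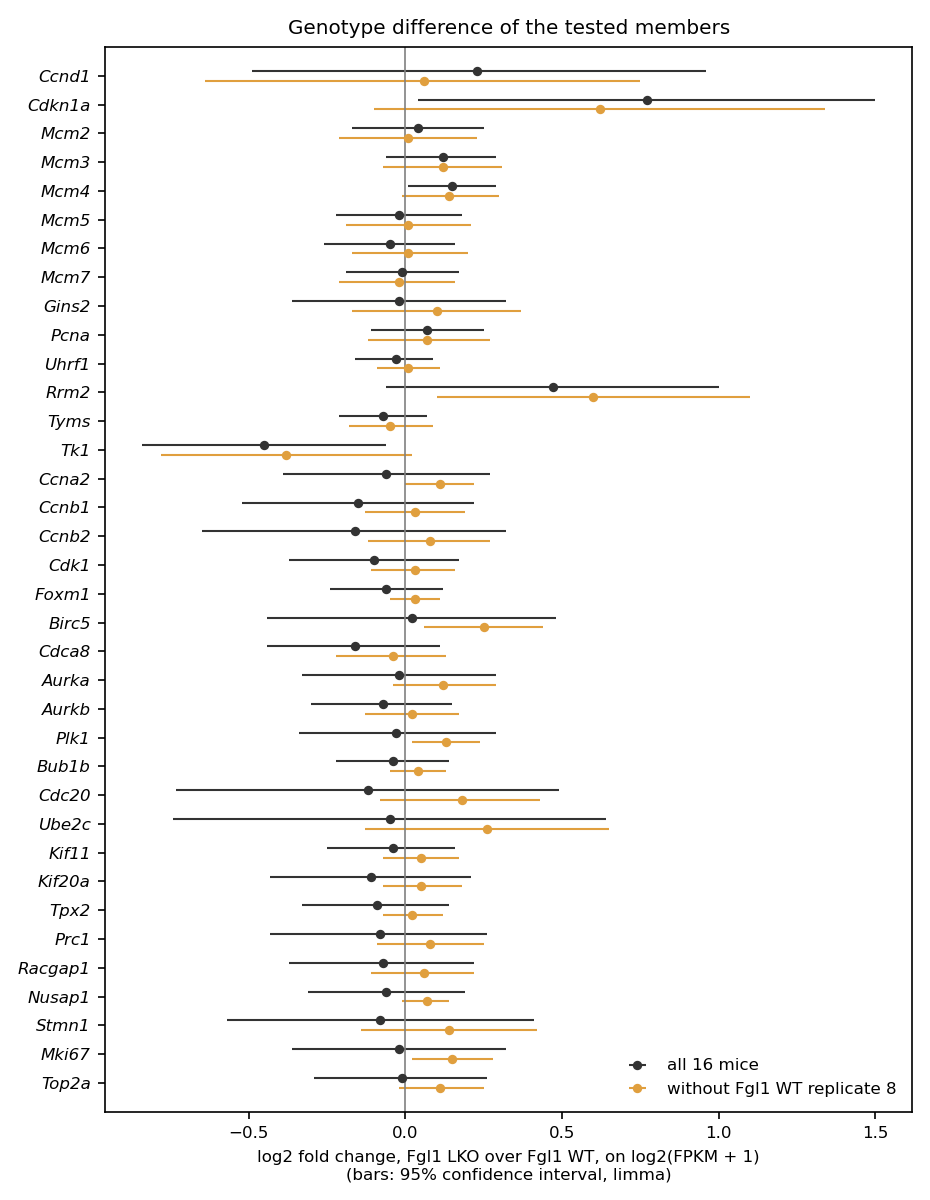
Log2 fold changes of the 36 tested genes, Fgl1 LKO over Fgl1 WT on log2(FPKM + 1), with confidence intervals from limma, for all 16 mice (dark) and without Fgl1 WT replicate 8 (orange). The mitotic genes lie between -0.16 and 0.02 with all mice and between -0.04 and 0.26 without that mouse.

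*Cdkn1a*, which encodes the kinase inhibitor p21, ranged from 4.24 to 29.3 FPKM in Fgl1 WT (median 8.96) and from 10.5 to 34.2 FPKM in Fgl1 LKO (median 18.5). All 8 Fgl1 LKO mice were above the Fgl1 WT median, but the ranges overlapped: 4 Fgl1 WT mice at 4.24 to 6.12 FPKM were below every Fgl1 LKO mouse, and the other 4, at 11.81 to 29.33 FPKM, lay among them. Its log2 fold change was 0.77 ± 0.35 (SE; limma p = 0.0397, adjusted 0.696), and the exact permutation test gave p = 0.0674. Without Fgl1 WT replicate 8, the lowest mouse, it was 0.62 ± 0.34 (adjusted p 0.893), and 6 of 8 Fgl1 LKO mice were above the median of the other Fgl1 WT mice. The libraries carry numbers that fall into 5 runs, of which 3 hold both genotypes, and the difference was uneven over them: 0.22 among numbers 48 to 50, -0.12 among 60 to 64 and 2.12 among 69 to 72. A fit that included the run gave 0.74, and its unadjusted p was no longer under 0.05.

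*Ccnd1*, which encodes cyclin D1, ranged from 1.35 to 10.2 FPKM in Fgl1 WT (median 5.76) and from 2.26 to 12.8 FPKM in Fgl1 LKO (median 4.54). The groups overlapped over nearly their whole range, and the log2 fold change was 0.23 ± 0.34 (exact permutation test, p = 0.55), 0.06 without Fgl1 WT replicate 8 and 0.01 with the first run left out. Among the runs that hold both genotypes the difference was 0.31, -0.95 and 1.22. Fgl1 WT replicate 8, the mouse with the highest mitotic genes, was the lowest of all 16 for both *Ccnd1* and *Cdkn1a*, and it was the lowest for 2680 of all genes (21.0%). Fgl1 LKO replicate 8 was the highest of all 16 for both genes, as it was for 1620 of all genes (12.7%).

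Among the replication genes, *Mcm4* encodes a subunit of the MCM helicase. *Mcm4* ranged from 0.59 to 1.15 FPKM in Fgl1 WT (median 0.895) and from 0.88 to 1.24 FPKM in Fgl1 LKO (median 1.13). The groups overlapped, with 7 of 8 Fgl1 LKO mice above the Fgl1 WT median, at a log2 fold change of 0.15 ± 0.07 (limma p = 0.0394, adjusted 0.696; exact permutation test, p = 0.0389). Among the runs of library numbers, the difference was 0.22, 0.00 and 0.06, and with the run as a term it was 0.07, with an unadjusted p above 0.05. Without Fgl1 WT replicate 8 it was 0.14, also with an unadjusted p above 0.05. With pseudocounts of 0.1 and 0.01 FPKM in place of 1 FPKM it was 0.29 and 0.31. *Mcm3* had 0.75 to 1.41 FPKM in Fgl1 WT (median 1.12) and 0.92 to 1.76 FPKM in Fgl1 LKO (median 1.21). *Mcm6* had 1.29 to 2.74 FPKM in Fgl1 WT (median 1.75) and 1.11 to 2.26 FPKM in Fgl1 LKO (median 1.69). *Mcm7*, the most abundant of the 6 subunits, had 5.16 to 7.44 FPKM in Fgl1 WT (median 5.92) and 5.38 to 7.14 FPKM in Fgl1 LKO (median 6.05). The genotypes overlapped in all 3 genes, and Fgl1 WT replicate 8 was the highest of the 16 mice for *Mcm6*, ninth for *Mcm3* and eleventh for *Mcm7*. The helicase and GINS members as a whole lay between -0.05 and 0.15 on the log2 scale.

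*Pcna*, the sliding clamp of the DNA polymerases, had 12.9 to 21.4 FPKM in Fgl1 WT (median 17.1) and 15.8 to 20.4 FPKM in Fgl1 LKO (median 17.6). The Fgl1 LKO mice lay inside the Fgl1 WT range (log2 fold change 0.07 ± 0.09, exact permutation test, p = 0.454), and Fgl1 WT replicate 8 was in the middle with 17.2 FPKM. The log2 fold change was 0.17 with the run as a term. It was 0.18 with the first run left out, where the unadjusted p was under 0.05. With the run term and omission of Fgl1 WT replicate 8 combined in 1 fit, the unadjusted p was also under 0.05. With either change alone it was not. *Uhrf1*, which guides maintenance methylation of new DNA, stayed at or below 0.43 FPKM in all mice.

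The 3 genes of deoxynucleotide synthesis differed in pattern. *Rrm2*, the regulated subunit of ribonucleotide reductase, ranged from 0.99 to 4.63 FPKM in Fgl1 WT (median 1.80) and from 1.02 to 6.89 FPKM in Fgl1 LKO (median 3.12). In Fgl1 WT, 7 of 8 mice were at or below 2.04 FPKM and replicate 8 was apart at 4.63, whereas the Fgl1 LKO mice were spread over the whole range. The log2 fold change was 0.47 ± 0.25 (limma p = 0.0806; exact permutation test, p = 0.113) and 0.60 ± 0.24 without Fgl1 WT replicate 8 (limma p = 0.0221, adjusted 0.893). With each mouse left out in turn it was 0.33 to 0.61, lowest without Fgl1 LKO replicate 8. Among the runs it was 0.06, 0.16 and 0.80, and with a term for the run 0.36. With that term and without Fgl1 WT replicate 8 it was 0.43, with an unadjusted p above 0.05. *Tyms*, thymidylate synthase, had 1.15 to 1.91 FPKM in Fgl1 WT (median 1.41) and 1.13 to 1.55 FPKM in Fgl1 LKO (median 1.38), with a log2 fold change of -0.07 ± 0.07 (exact permutation test, p = 0.259).

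*Tk1*, the thymidine kinase of the salvage pathway, ranged from 11.6 to 26.3 FPKM in Fgl1 WT (median 18.4) and from 6.54 to 18.2 FPKM in Fgl1 LKO (median 13.5). All 8 Fgl1 LKO mice were below the Fgl1 WT median, with a log2 fold change of -0.45 ± 0.19 (limma p = 0.0274, adjusted 0.696; exact permutation test, p = 0.042). The highest 4 mice were Fgl1 WT replicate 8 and the 3 Fgl1 WT mice of the first run of library numbers, 36 to 38, which holds no Fgl1 LKO mouse. Within the runs that hold both genotypes the difference was -0.34, 0.23 and -1.01, and with the run as a term it was -0.33. With the first run left out it was -0.27, and in neither of these fits was the unadjusted p under 0.05. Without Fgl1 WT replicate 8 it was -0.38 ± 0.19 (adjusted p 0.893), and 2 of 8 Fgl1 LKO mice were above the median of the other Fgl1 WT mice. The 4 mice highest for *Tk1* had 82.9 to 97.3 FPKM of the overlapping *Afmid*, against a median of 72.3 FPKM over all mice. *Syngr2* (45.1 FPKM on average) also overlaps *Tk1* on the opposite strand, over 3379 bases against 331 for *Afmid*. The part of fragments of either gene in the *Tk1* values was not tested.

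**Figure D3:**
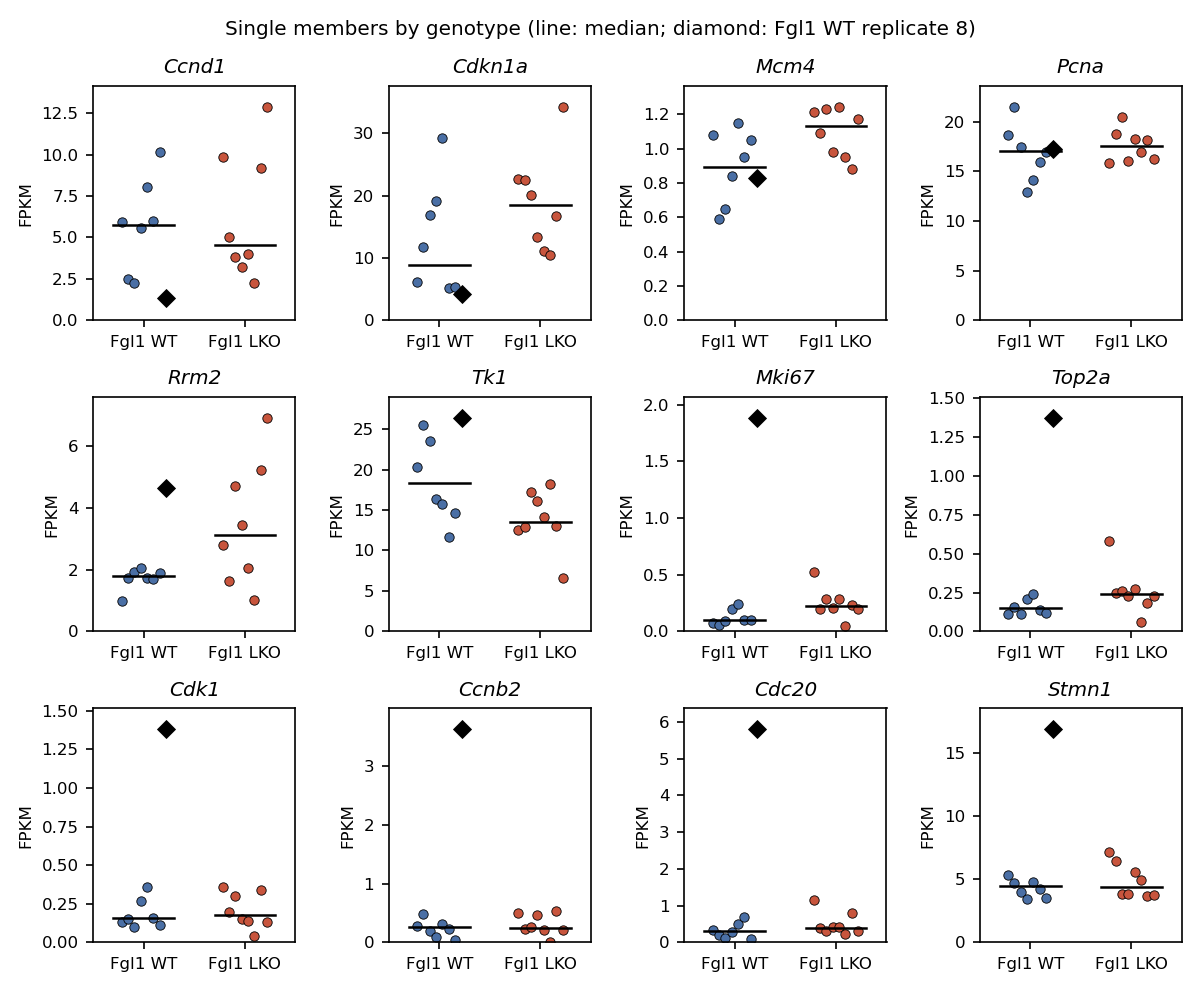
FPKM of 12 genes in each mouse by genotype; points are mice, lines are medians of 8 mice, and the black diamond is Fgl1 WT replicate 8. That mouse is far above all others for *Mki67* (1.88 FPKM), *Top2a* (1.37 FPKM), *Cdk1* (1.38 FPKM), *Ccnb2*, *Cdc20* and *Stmn1*, inside the range for *Pcna* and *Mcm4*, and lowest for *Ccnd1* and *Cdkn1a*.

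*Mki67*, which encodes the proliferation marker Ki-67 that coats mitotic chromosomes, ranged from 0.06 to 1.88 FPKM in Fgl1 WT (median 0.10) and from 0.05 to 0.52 FPKM in Fgl1 LKO (median 0.22). In 7 of the 8 Fgl1 WT mice it did not exceed 0.24 FPKM, and 7 of 8 Fgl1 LKO mice were above the Fgl1 WT median. The log2 fold change was -0.02 ± 0.16 with all mice (exact permutation test, p = 0.985) and 0.15 ± 0.06 without Fgl1 WT replicate 8 (limma p = 0.0307, adjusted 0.893). With the run as a term and without that mouse, the unadjusted p was above 0.05. Among the runs, with all mice, the difference was 0.17, 0.01 and -0.55. With all mice and pseudocounts of 0.1 and 0.01 FPKM it was 0.21 and 0.41, and that of *Plk1* was 0.24 and 0.66 in place of -0.03. *Top2a*, the topoisomerase that untangles sister chromatids, ranged from 0.11 to 1.37 FPKM in Fgl1 WT (median 0.15) and from 0.06 to 0.58 FPKM in Fgl1 LKO (median 0.24). The same 2 mice were at the top of their groups.

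*Cdk1*, the kinase that drives entry into mitosis, ranged from 0.10 to 1.38 FPKM in Fgl1 WT (median 0.155) and from 0.04 to 0.36 FPKM in Fgl1 LKO (median 0.175). *Foxm1*, a transcription factor for genes of the G2 and M phases, ranged from 0.04 to 0.75 FPKM in Fgl1 WT (median 0.09) and from 0.06 to 0.23 FPKM in Fgl1 LKO (median 0.095). Apart from Fgl1 WT replicate 8, the groups overlapped for both genes, with *Cdk1* lowest in Fgl1 LKO replicate 6 (0.04 FPKM) and *Foxm1* highest in Fgl1 LKO replicate 2 (0.23 FPKM). The cyclins *Ccna2*, *Ccnb1* and *Ccnb2* reached 1.89, 2.06 and 3.63 FPKM in Fgl1 WT replicate 8, which was 12.6, 22.9 and 15.8 times the median of the other Fgl1 WT mice.

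*Ube2c* and *Cdc20*, the partner enzyme and the activator of the anaphase-promoting complex, were among the higher mitotic members. *Ube2c* ranged from 0 to 7.11 FPKM in Fgl1 WT (median 0.53) and from 0.17 to 2.24 FPKM in Fgl1 LKO (median 0.74). *Cdc20* reached 5.80 FPKM in Fgl1 WT replicate 8, 21.5 times the median of the other Fgl1 WT mice, and 1.15 FPKM in Fgl1 LKO replicate 1. *Stmn1*, which destabilises microtubules, ranged from 3.42 to 16.9 FPKM in Fgl1 WT (median 4.47) and from 3.66 to 7.18 FPKM in Fgl1 LKO (median 4.40). It was the most abundant mitotic member and again highest in the same mouse of each group.

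The remaining mitotic members were also highest in Fgl1 WT replicate 8. *Birc5*, *Cdca8* and *Aurkb* of the chromosomal passenger complex, the kinases *Aurka* and *Plk1* and the checkpoint genes *Bub1* and *Bub1b* reached 3.14 to 13.3 times the median of the other Fgl1 WT mice. *Kif11*, *Kif20a*, *Tpx2*, *Prc1*, *Racgap1*, *Nusap1* and *Cenpf*, which act at the spindle, the kinetochore and the cleavage furrow, were 4.75 to 19 times that median. With this mouse set aside, Fgl1 LKO replicate 1 was the highest of the other 15 for 18 of the 24 mitotic members, and for 17 of the 22 that passed the filter, against 556 of 12770 genes (4.35%). The mitotic members summed to 20.1 FPKM in Fgl1 LKO replicate 1, and to between 6.29 and 12.8 FPKM in the other 14 mice.

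In Fgl1 WT replicate 8 the 12 replication members had a median ratio of 1.47 to the median of the other Fgl1 WT mice, and the 22 mitotic members one of 11.5. *Gins2* was 5.80 times and *Uhrf1* 3.31 times that median, while *Mcm2*, *Mcm3*, *Mcm4* and *Mcm7* were below it at 0.767, 0.974, 0.874 and 0.907 times. *Rrm2* was at 2.69 times, *Mcm5*, *Mcm6*, *Tk1* and *Tyms* at 1.34 to 1.67 times and *Pcna* at 1.01 times. This mouse was the highest of the 16 for 4 of the 12, against 3.45% of all genes. None of the 12 was double the next highest mouse.

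**Figure D4:**
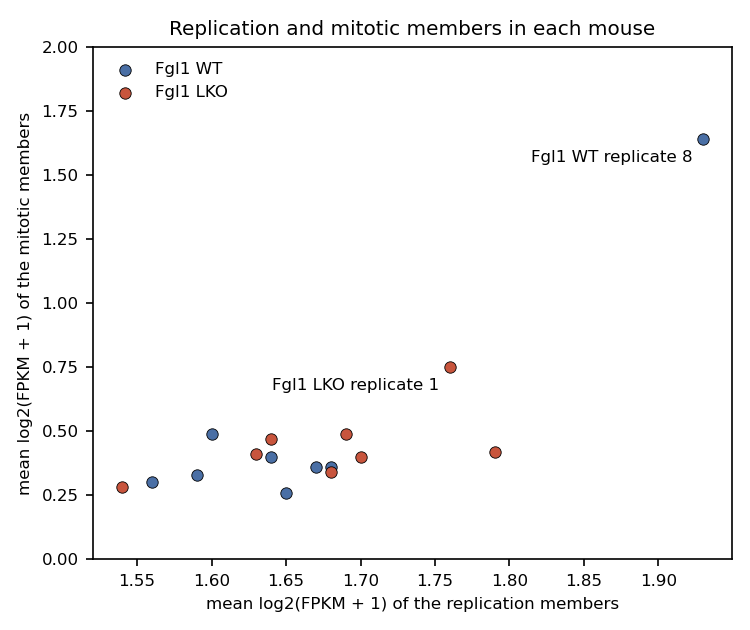
Mean log2(FPKM + 1) of the 12 replication genes (horizontal axis) and of the 22 mitotic genes that passed the filter (vertical axis) in each mouse, coloured by genotype. Fgl1 WT replicate 8 stands at 1.93 and 1.64 and Fgl1 LKO replicate 1 at 1.76 and 0.75, while the other 14 mice have mitotic means of 0.26 to 0.49.

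Because the mitotic members were all highest in the same mouse, promoters of the members were searched for elements known from cell cycle promoters. RefSeq promoter sequences (GRCm38.p6) were at hand for 29 of the 38 members, as 33 promoters, and the 200 bases before the start site were searched on both strands. The letters searched were TTTGAA and TTCGAA for the cell cycle genes homology region (CHR), CCAAT for the CCAAT box, and TTTGGCGC, TTTCCCGC, TTTGCCGC and TTTCGCGC for E2F-type elements. Of 19 promoters of mitotic members, 17 held a CCAAT (89.5%) and 9 a CHR match (47.4%), against 29.3% and 13.4% of all 32851 promoters. Of 12 promoters of replication members, 10 held a CCAAT (83.3%) and 2 a CHR match (16.7%). CCAAT and CHR were found together in 9 of the 19, against 4.02% of all promoters. E2F-type letters were in 1 of 19 mitotic promoters (5.26%) and in 4 of 12 replication promoters (33.3%), against 1.58% of all. A match describes the letters in this window and not binding.

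The stretches below are the 200 bases before the start site, 5′ to 3′ on the strand of the gene, for the 3 mitotic and 2 replication members with the highest mean FPKM that held a match. In Fgl1 WT replicate 8 these genes were 13.7 (*Ube2c*), 21.5 (*Cdc20*), 3.14 (*Cdca8*), 1.01 (*Pcna*) and 0.907 (*Mcm7*) times the median of the other Fgl1 WT mice. Capitals mark CHR, CCAAT and E2F-type matches on either strand, and in *Ube2c* 2 CCAAT matches on opposite strands overlap.
*Ube2c* (chr2:164769729-164769928, plus strand): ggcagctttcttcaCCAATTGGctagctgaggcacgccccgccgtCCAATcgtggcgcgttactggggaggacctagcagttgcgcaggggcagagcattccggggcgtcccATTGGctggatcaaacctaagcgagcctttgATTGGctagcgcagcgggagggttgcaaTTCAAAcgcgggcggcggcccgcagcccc
*Cdc20* (chr4:118437344-118437543, minus strand): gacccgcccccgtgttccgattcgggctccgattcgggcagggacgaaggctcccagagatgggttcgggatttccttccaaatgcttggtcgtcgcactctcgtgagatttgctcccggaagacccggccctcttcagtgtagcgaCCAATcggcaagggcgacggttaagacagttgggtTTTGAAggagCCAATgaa
*Cdca8* (chr4:124936918-124937117, minus strand): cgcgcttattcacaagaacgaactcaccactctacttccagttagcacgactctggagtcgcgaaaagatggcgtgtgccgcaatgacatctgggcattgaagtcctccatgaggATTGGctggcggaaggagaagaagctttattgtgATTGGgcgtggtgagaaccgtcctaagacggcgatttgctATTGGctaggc
*Pcna* (chr2:132253181-132253380, minus strand): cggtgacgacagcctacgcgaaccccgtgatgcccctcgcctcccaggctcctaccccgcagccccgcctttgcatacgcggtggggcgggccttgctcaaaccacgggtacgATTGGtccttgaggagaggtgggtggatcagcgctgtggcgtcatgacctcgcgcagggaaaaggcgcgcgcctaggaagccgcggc
*Mcm7* (chr5:138171884-138172083, minus strand): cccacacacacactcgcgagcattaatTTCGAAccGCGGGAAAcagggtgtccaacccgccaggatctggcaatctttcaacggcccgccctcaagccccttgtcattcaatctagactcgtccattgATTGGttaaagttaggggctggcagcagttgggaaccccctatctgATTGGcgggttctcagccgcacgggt

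*Ube2c* held 5 CCAAT matches and 1 CHR match, and *Cdc20* held 2 and 1. *Cdca8* held 3 CCAAT matches and no CHR match within the window, and *Ccnb1*, the mitotic member with the highest ratio of Fgl1 WT replicate 8 to the median of the other Fgl1 WT mice (22.9), held no CHR match either. *Pcna*, with 17.2 FPKM in that mouse and a median of 17.0 in the other Fgl1 WT mice, held 1 CCAAT match. *Mcm7*, at 0.907 times that median there, held 2 CCAAT matches, 1 CHR match and 1 E2F-type match, and it has a second start site in the table.

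Other genes of the same processes were taken from lists. Of 64 further mitosis and cytokinesis genes, 42 passed the filter and none passed the threshold between genotypes. At an unadjusted p under 0.05, *Ccnf* was higher in Fgl1 LKO (7.32 to 11.2 FPKM against 5.83 to 9.85 FPKM in Fgl1 WT, log2 fold change 0.26 ± 0.10, adjusted p 0.696) and *Cenpk* lower (log2 fold change -0.19 ± 0.07, adjusted p 0.696), 1 gene in each direction, against 4.64% and 2.36% of all genes. Besides *Ccnf* (8.75 FPKM on average), the most abundant genes of this list were *Pttg1* (33.5), *Cks2* (18.0), *Bub3* (12.9) and *Cks1b* (8.55). The log2 fold changes of these genes other than *Ccnf* lay between -0.10 and 0.08. The median log2 fold change was -0.06 with all mice, with 10 of 42 above 0, and 0.03 without Fgl1 WT replicate 8, with 28 above 0. Without that mouse 5 genes were higher and 1 lower at an unadjusted p under 0.05 (2.90% and 2.44% of all genes). The 42 include genes that passed the filter only through that mouse, so these medians and counts rest in part on them. Fgl1 WT replicate 8 was the highest of the 16 for 31 of the 42 genes, and at least double the next mouse for 15 of them (3.45% and 0.415% of all genes). Some of these passed the filter through that mouse alone. The mean over the other 15 mice reached 0.1 FPKM for 36 genes. Of these, that mouse was the highest for 25 and at least double the next mouse for 9, against 3.36% and 0.352% of all genes. None of *Pttg1*, *Cks2*, *Bub3* and *Cks1b* was among the 31. *Bub3* was at its lowest of all mice there with 9.76 FPKM, as were 21.0% of all genes.

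Of 47 further genes of origin licensing and replication, 43 passed the filter and none passed the threshold. At an unadjusted p under 0.05, 5 were lower in Fgl1 LKO and 1 higher (2.36% and 4.64% of all genes), and the median log2 fold change was -0.04. *Prim2*, a primase subunit, ranged from 1.17 to 1.64 FPKM in Fgl1 WT and from 0.80 to 1.38 FPKM in Fgl1 LKO (log2 fold change -0.21 ± 0.06, adjusted p 0.696). *Rfc5* of the clamp loader, the kinase activator *Dbf4*, the licensing inhibitor *Gmnn* and the polymerase subunit *Pola2* lay between -0.53 and -0.21, and *Rpa2*, of the single-strand binding complex, was at 0.17. All 6 had an adjusted p of 0.696. Their log2 fold changes without Fgl1 WT replicate 8 were between -0.49 and 0.17, and unadjusted p remained under 0.05 for 5 lower and 1 higher of the 43.

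Of 32 further genes of G1 control, 30 passed the filter and none passed the threshold, with a median log2 fold change of 0.02. At an unadjusted p under 0.05, 2 were higher in Fgl1 LKO and 2 lower (4.64% and 2.36% of all genes). The inhibitor gene *Cdkn2c* had 3.16 to 6.96 FPKM in Fgl1 WT and 2.02 to 4.45 FPKM in Fgl1 LKO (log2 fold change -0.43 ± 0.15, adjusted p 0.696). *Cdk2* was at -0.23 ± 0.09, and the E2F partner *Tfdp1* and the ubiquitin ligase subunit *Skp2* were at 0.19 ± 0.08 and 0.14 ± 0.06. *Cdk4* and *Ccnd3*, the most abundant of this list at 21.0 and 15.6 FPKM on average, were at 0.06 and 0.08. Of 30 other p53 targets, 29 passed the filter, and none had an unadjusted p under 0.05 (median log2 fold change 0.01). *Ephx1*, *Ei24*, *Perp*, *Bax*, *Plk3* and *Trp53inp1*, the most abundant of these, lay between -0.23 and 0.13, beside 0.77 for *Cdkn1a*.

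Over all genes outside the members, the 10 most like the mean of the 22 mitotic members across the 16 mice, by Pearson r of log2(FPKM + 1) centred on each genotype, were *Hmmr*, *Ckap2*, *Ckap2l*, *Kif20b*, *Nuf2*, *Esco2*, *Neurl1b*, *Arhgef39*, *Knstrn* and D17H6S56E-5 (r between 0.948 and 0.986). With 1 mouse so far from the others, these values rest on it. Without Fgl1 WT replicate 8, over 15 mice, r of the top 10 was between 0.803 and 0.906, and 6 genes were in both sets: *Hmmr*, *Ckap2*, *Ckap2l*, *Kif20b*, *Nuf2* and D17H6S56E-5. The other 4 were *Cx3cl1*, *Kat8* and *Ccl19* with *Gm2023*, whose values are identical. *Hmmr*, *Ckap2*, *Kif20b* and *Nuf2* had passed the filter only through the mouse left out. With the filter on the other 15 mice, 3 genes were in both sets (*Ckap2l*, *Neurl1b* and D17H6S56E-5), and without Fgl1 WT replicate 8 only 1 of the top 10 was on the list of other mitosis genes. Of the 53 genes that were at least double the next mouse in Fgl1 WT replicate 8, 22 were members, 15 were on the list of other mitosis genes and 16 were on no list. The 16, named after their values were seen, include *Shcbp1*, *Esco2*, *Kifc1*, *Spag5*, *Rad51ap1* and *Zwilch*, and also *Nr4a1* (3.69 FPKM against at most 1.60 in the other mice). Some of the 53 had passed the filter only through Fgl1 WT replicate 8. With the filter on the other 15 mice they numbered 45, of which 22 were members and 9 were on the list of other mitosis genes.

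Markers of other cells did not set Fgl1 WT replicate 8 apart in the way the mitotic genes did. Of 60 cell type markers in the table, it was the highest of the 16 mice for 2, against 3.45% of all genes. These were *Serpina1a* of hepatocytes (3908 FPKM) and *Dlk1* of fetal hepatocytes (0.02 FPKM). Among markers above 0 in every mouse it was the lowest for 4, while it was the lowest for 21.0% of all genes. The 4 were *Hnf4a* of hepatocytes (117.35 FPKM), *Col1a1* of stellate cells (1.0), and *Krt19* (0.71) and *Sox9* (0.62) of cholangiocytes. Its summed T cell markers were 1.99 FPKM (1.15 to 2.82 in the other mice, *Cd4* the most abundant, *Cd3e* listed at 0). The B and plasma cell markers summed to 1.63 FPKM (0.78 to 3.38, *Cd79a* the most abundant, *Ms4a1* listed at 0) and the neutrophil markers to 2.47 FPKM (0.93 to 33.7, *S100a8* the most abundant, *Ly6g* and *Mpo* listed at 0). Each sum thus lay inside the range of the other mice.

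Erythroid markers summed to 754 FPKM in this mouse (369 to 1110 in the others, *Hba-a1* the most abundant), the fifth highest, with *Klf1* at 1.99 FPKM. Kupffer cell markers summed to 96.2 FPKM (52.5 to 140, *Cd5l* the most abundant), and cholangiocyte markers to 53.2 FPKM (24.7 to 262, *Cftr* listed at 0), of which *Spp1* alone made up 51.0 FPKM. Endothelial markers at 41.9 FPKM (26.1 to 104, *Clec4g* the most abundant) and stellate markers at 54.5 FPKM (46.1 to 114, *Dcn* the most abundant) ranked fourteenth and fifteenth of the 16 mice. Fetal and neonatal hepatocyte markers summed to 1.28 FPKM (0.69 to 2.09, *Afp* the most abundant at 0.94). In which cells the mitotic transcripts of this liver lay was not tested.

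In Fgl1 LKO replicate 1, the mouse with the second highest mitotic sum, the T cell markers summed to 2.82 FPKM, the highest of the 16 beside 2.81 FPKM in an Fgl1 WT mouse. Of this sum *Cd4* made up 1.93 FPKM, and *Cd3e* was listed at 0. The neutrophil and B cell markers summed to 26.8 and 2.57 FPKM, each the second highest, with *Ly6g*, *Mpo* and *Elane* of neutrophils listed at 0. Its Kupffer cell and stellate cell sums, 114 and 87.2 FPKM, were each the third highest, and its cholangiocyte sum, 63.4 FPKM, the fourth. The other sums ranked between 8 and 10 from the top. The part of any of these cells in its mitotic values was not tested. Between genotypes no marker passed the threshold. At an unadjusted p under 0.05, *Adgre1* and *Vsig4* of Kupffer cells were higher in Fgl1 LKO (log2 fold changes 0.38 ± 0.16 and 0.37 ± 0.16, adjusted p 0.696), as was *Cd79b* of B cells (0.27 ± 0.11, adjusted p 0.696), and none of the other markers was, against 4.64% of all genes. Without Fgl1 WT replicate 8 the unadjusted p of *Adgre1* was above 0.05 (log2 fold change 0.35). Those of *Vsig4* (0.44) and *Cd79b* (0.24) stayed under 0.05, against 2.90% of all genes, and no gene passed after adjustment.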

How the data were processed

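Poly(A) RNA of whole liver was sequenced by the authors in 16 libraries, 1 per mouse. The FPKM values were made and deposited by the authors. Filtered reads had been aligned by HISAT (genome, mm39) and by Bowtie2 (reference genes). Neither software versions nor how fragments were counted, nor which annotation was used, is given in the sources used here. The table holds 2 decimals. No 2 libraries were identical. Depth is unknown, apart from the estimate from steps in low values, which uses canonical transcript lengths of GENCODE vM39 (GRCm39) and steps that were whole within 0.2. Values are for single mice, and p-values measure the spread between mice.

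Values were used as deposited, with 1 FPKM added, on the log2 scale, for the 12770 genes whose mean reached 0.1 FPKM. Genotypes were compared with limma 3.58.1 in R 4.3.3 (lmFit and eBayes, trend on; two-sided), and p was adjusted over all genes by Benjamini-Hochberg. Single members were also compared by exact permutation over all splits into 8 and 8. Python 3.11.15 with numpy 2.4.6 and pandas 2.3.3 was used otherwise. The limma step was tested on simulated data. The members and lists were chosen with earlier results of these data known. Members with a mean of at least 1 FPKM, those with an unadjusted p under 0.05, and *Mki67*, *Top2a*, *Cdk1*, *Foxm1*, *Ccnd1* and *Cdkn1a* are given for each genotype, the others by ranges. Of each other list, at most 6 genes are named, by unadjusted p under 0.05 and then by mean FPKM. Further genes named from Fgl1 WT replicate 8 were picked with their values in view. Alternatives were pseudocounts of 0.1 and 0.01, no filter or a mean of 1 FPKM, 3 scalings, a replicate block, a term for the run of library numbers, omission of the first run or of each mouse, and robust empirical Bayes. The fits combining omission of Fgl1 WT replicate 8 with median-ratio scaling or with the run term, the likeness without it, and the filter on the other 15 mice, were added after seeing the data. Of the erythroid markers, 1 is not reported here and was left out of the sums and counts.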

Additional observations from a re-analysis of the deposited data

Results flagged for a closer look

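In each genotype of 8 mice, the gap of the highest or lowest mouse to its nearest neighbour was compared with the range of the group on log2(FPKM + 1) (Dixon's ratio, limit for 8 values). Of 76 groups (38 genes in 2 genotypes) 31 exceeded it, and 27 of the 31 were Fgl1 WT replicate 8. The limit is set for about 1 in 20 groups of normally distributed values. The share of all genes that exceed it is not given, so the count is not read as particular to the members. The groups share mice, so they are not independent of each other.

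Fgl1 WT replicate 8 was the far highest of its group for all 24 mitotic members. Its cyclins, kinase and transcription factor were at 1.89 FPKM for *Ccna2*, 2.06 for *Ccnb1*, 3.63 for *Ccnb2*, 1.38 for *Cdk1* and 0.75 for *Foxm1*. The passenger complex, kinase and checkpoint genes were at 3.92 FPKM for *Birc5*, 1.98 for *Cdca8*, 1.79 for *Aurka*, 0.93 for *Aurkb*, 1.6 for *Plk1*, 0.22 for *Bub1* and 0.86 for *Bub1b*. The anaphase-promoting complex partners were at 5.8 FPKM for *Cdc20* and 7.11 for *Ube2c*. The kinetochore, spindle and cytokinesis genes were at 0.38 FPKM for *Cenpf*, 0.95 for *Kif11*, 2.03 for *Kif20a*, 1.09 for *Tpx2*, 1.75 for *Prc1*, 1.39 for *Racgap1*, 1.18 for *Nusap1* and 16.87 for *Stmn1*, and the last 2 genes at 1.88 FPKM for *Mki67* and 1.37 for *Top2a*. The gap was between 0.543 and 0.906 of the range, widest for *Cenpf*. Among replication genes, the same mouse was far highest for *Gins2* (1.74 FPKM), *Uhrf1* (0.43) and *Rrm2* (4.63).

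Fgl1 LKO replicate 1 was far highest of its group for *Plk1* (0.42 FPKM), *Bub1b* (0.33) and *Top2a* (0.58), with gaps of 0.543 to 0.56. Fgl1 LKO replicate 8 was far lowest for *Tk1* (6.54 FPKM against 12.56 in the next mouse).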

How the results depend on the processing

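No member passed the adjusted threshold under any of the alternatives. Over all genes, *Fgl1* alone passed, 1 gene in place of 0, with an equal FPKM sum in each mouse, with a replicate block, with the run of library numbers as a term and with the first run left out. Members higher in Fgl1 LKO at an unadjusted p under 0.05 numbered 1 in place of 2 with a mean filter of 1 FPKM (fewer members tested), median-ratio scaling, quantile normalization, robust empirical Bayes and the first run left out, and 0 with the run term. With the first run left out none of *Cdkn1a*, *Mcm4* and *Tk1* was among them: *Pcna* (0.18) was higher and *Mcm5* (-0.18) lower, and with the run term *Mcm5* (-0.18) was the 1 lower. With each mouse left out in turn they numbered 0 to 5 and those lower 0 to 1. The 5 came without Fgl1 WT replicate 8, when *Ccna2* was at 0.11, *Mki67* at 0.15 and *Plk1* at 0.13 in place of -0.06, -0.02 and -0.03 with all mice (-0.09 to -0.04, -0.06 to 0.01 and -0.06 to -0.01 with any other mouse left out), and 24 of 36 members changed sign. With median-ratio scaling as well, chosen after seeing the data, there were 5 higher and 0 lower and the same 3 values (0.11, 0.15 and 0.13). With the run term and that mouse left out, also chosen after seeing the data, there were 1 higher (*Pcna*) and 0 lower. Pseudocounts of 0.1 and 0.01 changed the sign of 8 and 11 members, the median was then -0.01 and 0.02, and *Mcm4* was at 0.29 and 0.31. The median was -0.11 with the run term, -0.14 with the first run left out and -0.01 over the 11 members that reached a mean of 1 FPKM, and -0.06 to -0.04 in the other fits with all mice. The log2 fold change of *Cdkn1a* was 0.62 to 0.98, of *Mcm4* 0.12 to 0.18 and of *Tk1* -0.54 to -0.32 with each mouse left out, and without Fgl1 LKO replicate 8, as without Fgl1 WT replicate 8, none of the 3 had an unadjusted p under 0.05.

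With the replicate block, 1 member was higher (*Rrm2*) and 0 lower. The numbers did not pair the mice: same-numbered mice had correlations of their deviations from -0.16 to 0.45, over 0.1 in 3 of 8 pairs, and 2 of 8 Fgl1 WT mice were best matched by their own number. The low fragment numbers estimated for the mitotic members limit what their differences can show.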
